A study of Mus musculus with 66 samples.

Results

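The data described here are RNA sequencing libraries from cultured mouse neurons that received an shRNA against Chd8, set against libraries that received a nontargeting shRNA. An shRNA (short hairpin RNA) is cut by the cell into a small RNA that lowers the mRNA it matches. The comparison takes the 6 Chd8 libraries and the 6 nontargeting libraries, 12 of the 66 libraries of the series, and covers every gene with a symbol in the deposited count table. Of 30084 such genes, 14700 had enough counts to be tested.

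The neurons came from wildtype mouse embryos at e16.5, late in gestation, and male and female embryos were cultured apart. Each treatment has 3 libraries per sex. Lentivirus carried the shRNAs. Medium with virus was taken off at day 6 and the neurons were harvested at day 10. Cells without virus (3 libraries per sex) and cells with shRNAs against 8 other regulators (Tbr1, Setd5, Med13l, Mbd5, Kmt2c, Kdm6b, Dnmt3a and Ash1l, 48 libraries in all) came from the same experiment. All groups share the wildtype genotype. The table heads the nontargeting columns with a name for luciferase, a gene that mice lack, where the labels say nontargeting. The labels speak of a triplicate of wells per infection, so the replicates may be wells, and p-values then measure only the spread between these libraries, which may be technical. The labels name 1 shRNA treatment for Chd8 and give no hairpin sequence, so loss of Chd8 and any other effect of that hairpin cannot be told apart. The 12 libraries hold between 25681971 and 55616813 counts in named genes.

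CHD8 is a member of the CHD family of chromatin remodellers, proteins that use ATP to move nucleosomes and that read histone tails through a pair of chromodomains. It was first described as a binding partner of beta-catenin that restrains Wnt target genes. Loss-of-function variants in CHD8 are among the recurrent genetic findings in autism, often together with a large head. The protein binds many active promoters in the developing brain.

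Chd8 (chr14:52198151-52257780 in GRCm38, minus strand) fell in every Chd8 library. The nontargeting libraries held between 89.6 and 129 CPM (the count of a gene scaled to the size of its library), with a median of 118. The Chd8 libraries held between 34.8 and 41.5 CPM, with a median of 37.1. The groups did not overlap, and the 6 Chd8 libraries lay closer together than the 6 controls. The level in a Chd8 library was 33.4% ± 4.01 (SD, n = 6) of that in its same-sex, same-numbered control, with a range from 29.9% to 40.7%. The protocol had aimed at about 50%. The log2 fold change was -1.59 (SE 0.0652, adjusted p = 3.9e-08). It was -1.70 in males and -1.48 in females.

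The change reached far beyond the target. At an adjusted p under 0.05, 6606 of the 14700 genes were called, 44.9% of those tested (3957, or 26.9%, without the replicate block, which pairs libraries of the same sex and number). Of these, 3326 (22.6%) were higher and 3280 (22.3%) were lower after Chd8 shRNA, and the median log2 fold change over all genes was 0.01. Most of the changes were small. A log2 fold change under 0.5 in size was found for 2165 of the higher and 1788 of the lower genes, and a change between 0.5 and 1 for 892 and 1122. A change of at least 1, which is a 2-fold difference, was reached by 639 genes (4.35% of those tested), of which 370 were lower and 269 higher. At a size of at least 2 there were 25 lower and 13 higher genes. Of the 639 genes, 577 moved in the same direction in all 6 pairs of libraries and 585 were also called without the replicate block, while 81 lost the call when at least 1 of the 12 libraries was left out.

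**Figure D1:**
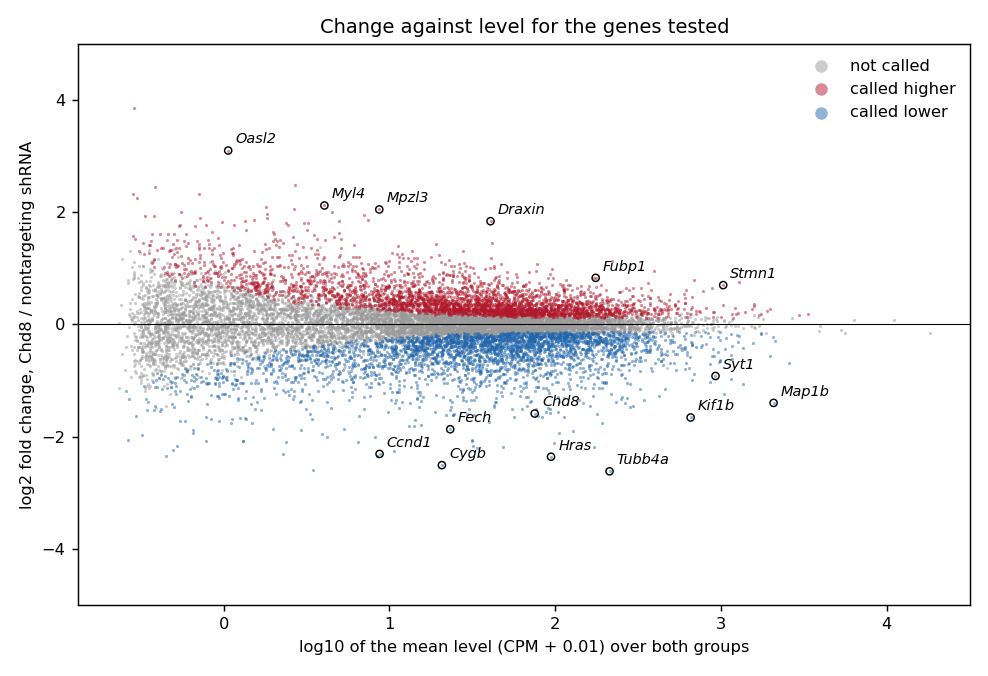
Log2 fold change of Chd8 over nontargeting shRNA (y axis) against the mean level of each gene (x axis, log10 of CPM + 0.01) for the 14700 genes tested; grey points are not called, red called higher and blue called lower at an adjusted p under 0.05. Of the labelled decreases, Map1b, Kif1b and Tubb4a lie among genes of high level, and Fech, Cygb and Ccnd1 at lower levels. Of the labelled increases, Myl4, Mpzl3 and Draxin lie at lower levels, and Fubp1 and Stmn1 at high levels.

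The share of genes called lower grew with the level of the gene. When the tested genes were divided by mean level into 10 groups of equal size, 5.85% were called lower and 8.30% higher in the lowest group, where the median level was 0.557 CPM. In the highest group, at a median of 247 CPM, 32.2% were called lower and 23.3% higher. Increases of at least 1 made up 5.85% of the lowest group and 0.0680% of the highest, while decreases of at least 1 made up 3.95% and 2.31%. Low counts limit which changes can be called, and the part of the level in these shares was not tested. Shares also differed with gene length: in the shortest and the longest of 10 such groups by length (medians of 2.54 and 237 kb) the share called lower was 16.9% and 22.5%, and the share called higher 15.2% and 24.5%. Across the 10 groups the share called lower ranged from 16.9% to 24.5% and the share called higher from 15.2% to 26.5%, the highest shares of the latter lying among the 4 groups of longest genes.

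Several of the clearest decreases were genes of axonal transport and of the neuronal cytoskeleton. Kif1b (chr4:149176319-149307693, minus strand) encodes a kinesin that carries synaptic vesicle precursors and mitochondria along axons. It measured 731 to 1288 CPM in the nontargeting libraries (median 996) and 238 to 415 CPM in the Chd8 libraries (median 315), with no overlap. Its log2 fold change was -1.66 (SE 0.0482, adjusted p = 4.1e-09). Map1b (chr13:99421446-99516540, minus strand), an abundant microtubule-associated protein of growing axons, ranged from 2051 to 3786 CPM in the controls (median 3169) and from 724 to 1404 CPM after Chd8 shRNA (median 1196). This is a log2 fold change of -1.40 (SE 0.0497, adjusted p = 2.8e-08). Tubb4a (chr17:57080066-57087782, minus strand), a beta-tubulin, had the largest decrease among genes of at least 5 CPM that moved alike in all 6 pairs. Its controls lay between 319 and 424 CPM (median 356) and its Chd8 libraries between 31.5 and 96.9 CPM (median 60.5), a log2 fold change of -2.62 (SE 0.143, adjusted p = 2.7e-06).

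Other leading decreases came from lipid, polyamine and heme metabolism. The smallest adjusted p of all belonged to Lpgat1, an acyltransferase of lysophospholipids, which went from 166 ± 23.9 CPM to 43.9 ± 7.99 CPM (SD, n = 6 each; log2 fold change -1.93, SE 0.0521, adjusted p = 3.7e-09). Azin1, the antizyme inhibitor that sustains polyamine synthesis, went from 271 to 330 CPM (median 293) to 81.4 to 101 CPM (median 86.6). Fech, ferrochelatase, inserts iron into heme as the last step of its synthesis. It measured 33.8 to 39.8 CPM in the controls (median 36.1) and 8.23 to 11.7 CPM after Chd8 shRNA (median 10.3), a log2 fold change of -1.87 (SE 0.0725, adjusted p = 3.2e-08). Qdpr, which regenerates the tetrahydrobiopterin cofactor of monoamine synthesis, had a log2 fold change of -2.20 (SE 0.117). Cygb, a globin of the cytoplasm, fell by 2.51 on the log2 scale (SE 0.149), from 35.2 ± 6.12 to 6.20 ± 1.48 CPM.

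Signalling and chromatin genes were also among the leading decreases. Hras (chr7:141189105-141194005, minus strand), a small GTPase upstream of the ERK cascade, lay between 128 and 205 CPM in the controls (median 155) and between 24.6 and 37.0 CPM in the Chd8 libraries (median 30.7). Its log2 fold change was -2.36 (SE 0.136, adjusted p = 3.0e-06). Ccnd1, cyclin D1, ranged from 11.4 to 19.4 CPM in the controls (median 13.6) and from 1.74 to 6.56 CPM after Chd8 shRNA (median 2.42), a log2 fold change of -2.31 (SE 0.158). Cbx5, the heterochromatin protein HP1 alpha, lay between 328 and 394 CPM in the controls and between 112 and 157 CPM after Chd8 shRNA (log2 fold change -1.33, SE 0.0550). The remaining genes with the smallest adjusted p or the largest decrease included Myo9a, Zdhhc21, Necab2, Igdcc4, Ppp1r1c, Myh8 and Scrt1, with log2 fold changes from -1.35 (Myo9a) to -2.60 (Ppp1r1c). Of those named here, Ppp1r1c was the 1 gene whose groups overlapped (SE 0.529, adjusted p = 0.00491).

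The leading increases were smaller in size and lower in level. Mpzl3 (chr9:45055186-45077436, plus strand), which encodes a membrane protein with an immunoglobulin-like domain, measured 2.65 to 4.78 CPM in the controls (mean 3.34) and 10.3 to 20.2 CPM after Chd8 shRNA (mean 14.0). Its log2 fold change of 2.05 (SE 0.0954, adjusted p = 8.0e-08) had the smallest adjusted p among genes that rose. Draxin (chr4:148098437-148130698, minus strand), a secreted repellent of commissural axons, lay between 12.6 and 23.1 CPM in the controls (median 16.9) and between 33.3 and 88.3 CPM after Chd8 shRNA (median 60.5), a log2 fold change of 1.84 (SE 0.149, adjusted p = 1.9e-05). Fubp1, a single-strand DNA-binding activator of Myc and splicing factor, was the most abundant of this set, at 116 to 142 CPM in the controls (median 123) and 192 to 280 CPM after Chd8 shRNA (median 217). The groups did not overlap for any of these 3 genes. Vrk3 (a nuclear kinase), Nkiras2 (an inhibitor of NF-kappa-B signalling), Pan2 (a poly(A) nuclease), Pgap3 (which remodels GPI anchors), Cdnf (a neurotrophic factor) and Chaf1b (a histone chaperone of replication) rose by log2 fold changes from 0.83 (Nkiras2) to 1.85 (Cdnf). C1qtnf1, Myl4, Edaradd and Cfap57 rose by 1.95, 2.12, 2.01 and 1.87, all from levels under 4 CPM, and Wdpcp, Cdc42se1, Kctd2 and Tmem80 by 1.18, 0.89, 0.71 and 1.11.

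**Figure D2:**
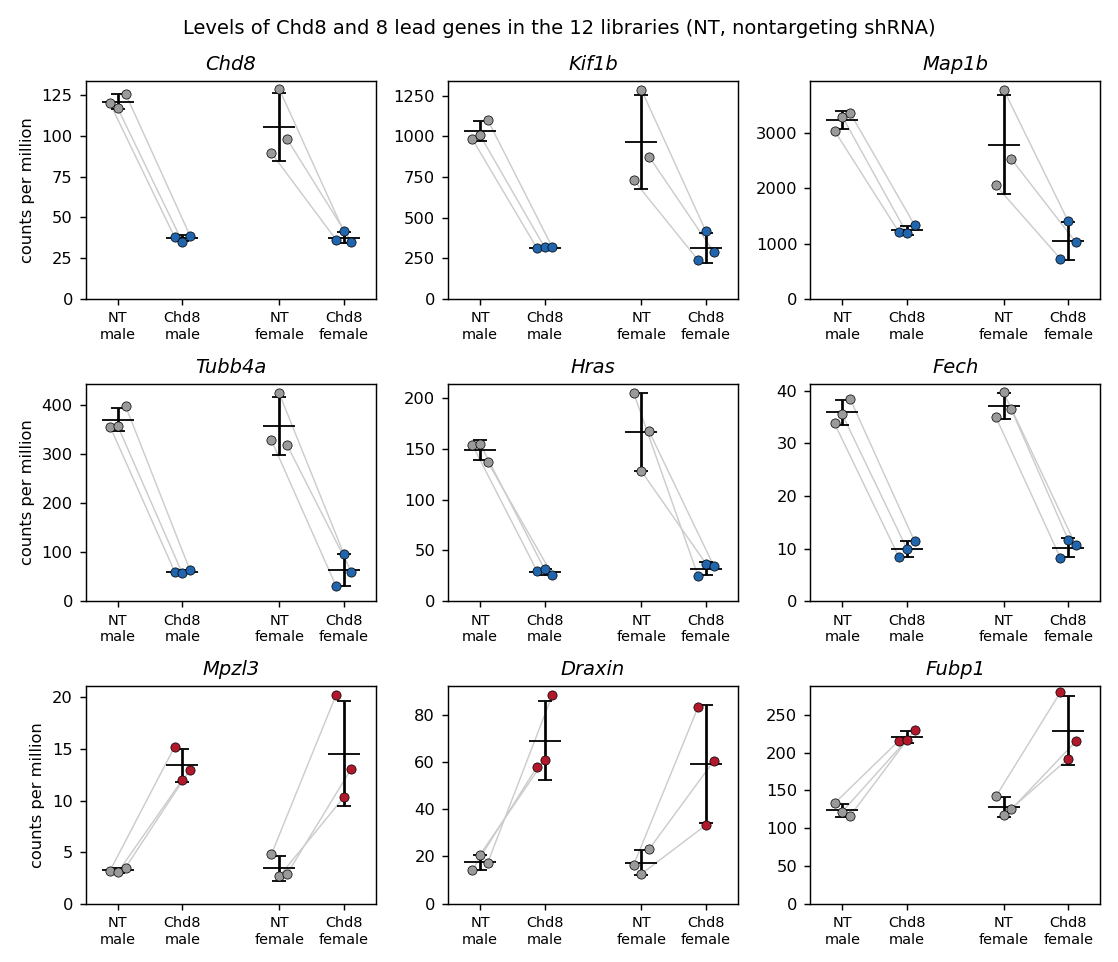
Level in CPM (y axis, from 0) of Chd8 and 8 lead genes in each of the 12 libraries, with nontargeting (NT, grey) and Chd8 shRNA (blue where lower, red where higher) split by sex; bars give the mean and SD of 3 libraries and thin lines join libraries of the same sex and number. In every panel each Chd8 library lies on the same side of all nontargeting libraries, for example 34.8 to 41.5 against 89.6 to 129 CPM for Chd8.

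Annotated genes on the other strand share exon sequence with 133 of the 401 genes named by rule, Chd8, Cygb, Ccnd1, Qdpr, Mpzl3, Vrk3 and Hk1 among them. Whether reads were counted by strand is not given in the sources used here, so for these genes reads of the 2 strands may be pooled.

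The sequences just before the transcription starts of lead genes are shown for the genes with the smallest adjusted p in each direction that have a single RefSeq start, 2 per direction, and for Chd8 itself. Each is the 250 bases upstream of the RefSeq start (GRCm38.p6), written on the strand of the gene. The gene spans printed elsewhere follow the GENCODE annotation, whose starts can differ from these. The Chd8 window reaches into the Chd8 span printed above. The Myo9a window lies inside the GENCODE span of Myo9a (chr9:59750896-59928866). The windows lie at chr14:52257761-52258010 (minus), chr13:99516603-99516852 (minus), chr9:59750924-59751173 (plus), chr11:100622705-100622954 (plus) and chr11:21572031-21572280 (plus). Capitals mark matches, on either strand, to 7 motifs of promoter-binding factors.

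Chd8: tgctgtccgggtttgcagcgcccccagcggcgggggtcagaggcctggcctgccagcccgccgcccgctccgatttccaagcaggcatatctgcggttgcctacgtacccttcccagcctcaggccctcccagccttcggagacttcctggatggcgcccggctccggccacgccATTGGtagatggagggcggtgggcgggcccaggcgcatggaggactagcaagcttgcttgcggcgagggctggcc

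Map1b: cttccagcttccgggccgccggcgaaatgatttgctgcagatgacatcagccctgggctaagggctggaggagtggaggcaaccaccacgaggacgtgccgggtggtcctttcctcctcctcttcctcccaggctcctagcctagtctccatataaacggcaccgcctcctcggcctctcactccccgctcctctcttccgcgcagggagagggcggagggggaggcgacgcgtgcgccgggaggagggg

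Myo9a: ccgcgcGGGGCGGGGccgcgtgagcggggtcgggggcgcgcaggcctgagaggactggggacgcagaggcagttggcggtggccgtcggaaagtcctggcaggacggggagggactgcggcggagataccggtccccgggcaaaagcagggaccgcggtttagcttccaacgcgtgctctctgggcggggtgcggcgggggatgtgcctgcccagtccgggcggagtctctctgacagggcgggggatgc

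Nkiras2: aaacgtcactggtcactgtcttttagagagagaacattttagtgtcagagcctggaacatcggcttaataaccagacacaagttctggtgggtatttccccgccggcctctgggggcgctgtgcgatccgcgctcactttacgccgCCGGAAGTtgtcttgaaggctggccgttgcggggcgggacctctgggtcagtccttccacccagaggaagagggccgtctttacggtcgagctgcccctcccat

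Wdpcp: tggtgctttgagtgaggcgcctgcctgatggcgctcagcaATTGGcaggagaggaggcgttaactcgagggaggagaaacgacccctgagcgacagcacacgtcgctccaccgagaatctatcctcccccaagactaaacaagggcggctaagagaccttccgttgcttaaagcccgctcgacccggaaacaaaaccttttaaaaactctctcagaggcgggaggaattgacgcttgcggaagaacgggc

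Map1b, which fell, holds none of the 7 motifs in this window. Myo9a, an unconventional myosin gene that also fell, holds the SP motif GGGGCGGGG 244 bases before its start, and Chd8 holds the NFY motif CCAAT on the other strand 75 bases before its start. Nkiras2, which rose, holds the ETS motif CCGGAAGT 104 bases before its start, and Wdpcp, a ciliary gene that rose, holds CCAAT on the other strand 210 bases before. Among all 32851 RefSeq windows of this length, CCAAT was found in 33.8%, GGGGCGGGG in 10.4% and CCGGAAGT in 2.88%. The other motifs searched were the E-box CACGTG (6.02%), the NRF1 motif GCATGCGC (2.26%), the YY1 motif AAGATGGC (1.56%) and the CRE TGACGTCA (1.55%), and no motif is contained in another. A comparison of motif shares between higher and lower genes was void, because a window could be matched to 11517 of the tested genes (78.3%), under the 80% set for such a check.

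Cell type markers were measured first as a background for the neuronal genes. The defining markers of the cultures were abundant. The 13 pan-neuronal markers summed to between 8898 and 10028 CPM in the controls and between 8370 and 9310 CPM after Chd8 shRNA, the 17 excitatory markers to 1356 to 1603 and 1284 to 1546 CPM, and the 18 interneuron markers to 3105 to 4314 and 2743 to 3749 CPM. These ranges overlap, while single markers moved in both directions. Of the pan-neuronal markers 5 rose and 8 fell, of the excitatory markers 3 rose and 4 fell, and of the interneuron markers 4 rose and 7 fell, beside 22.6% higher and 22.3% lower over all genes. All 13 pan-neuronal markers were thus called. Without the replicate block the counts were 4 and 4, 1 and 4, and 2 and 3. Elavl3, a neuronal RNA-binding protein, went from 492 ± 46.3 to 195 ± 31.4 CPM (log2 fold change -1.35, SE 0.0658), whereas its relative Elavl4 rose by 0.48 (SE 0.0726). Gad2, a GABA-synthesising enzyme, fell by 0.68 (SE 0.0629), while Gad1 was at 771 and 698 CPM and was not called (adjusted p = 0.194). Erbb4, the neuregulin receptor of interneurons, fell by 1.03 (SE 0.0815), and Calb2, calretinin, rose by 0.92 (SE 0.132, adjusted p = 0.0509 without the replicate block). In bulk samples fewer cells of a type and less RNA per cell cannot be told apart.

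Among markers of other cells, the summed levels of the groups did not overlap for vessels and meninges. The 11 tested vascular and meningeal markers summed to 46.0 to 83.5 CPM in the controls and 27.7 to 43.4 CPM after Chd8 shRNA. Of these markers 4 fell (36.4%, beside 22.3% of all genes) and none rose, and 2 fell without the replicate block. Dcn, decorin of fibroblasts, went from 24.2 ± 13.3 to 6.62 ± 3.12 CPM (log2 fold change -1.79, SE 0.132), with overlap, and the endothelial markers Cldn5 and Cdh5 were too low to test. The 19 astrocyte and radial glia markers summed to 733 to 1091 and 595 to 1391 CPM. Of these 5 fell (26.3%, near the share over all genes) and none rose, and 2 fell without the block. Gfap, the astrocyte filament protein, went from 8.28 ± 3.16 to 2.37 ± 1.14 CPM (log2 fold change -1.86, SE 0.199), while Fabp7 was at 186 ± 111 and 320 ± 234 CPM and was not called. The 8 tested oligodendrocyte markers summed to 59.4 to 70.9 and 45.3 to 61.3 CPM. Only 4 of 13 microglia markers could be tested, at sums of 14.1 to 20.6 and 11.3 to 23.8 CPM, with Cx3cr1, P2ry12 and Tmem119 below the filter. The part of these cells in the changes described below was not tested.

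Gene lists chosen by function are described next by how many tested members were called in each direction, beside the 22.6% higher and 22.3% lower of all genes and their median log2 fold change of 0.01. The plot of calls per list gives all 35. Lists differ in level, and over all genes 5.85% of the lowest and 32.2% of the highest group by level were called lower. The part of level in the counts per list was not tested.

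**Figure D3:**
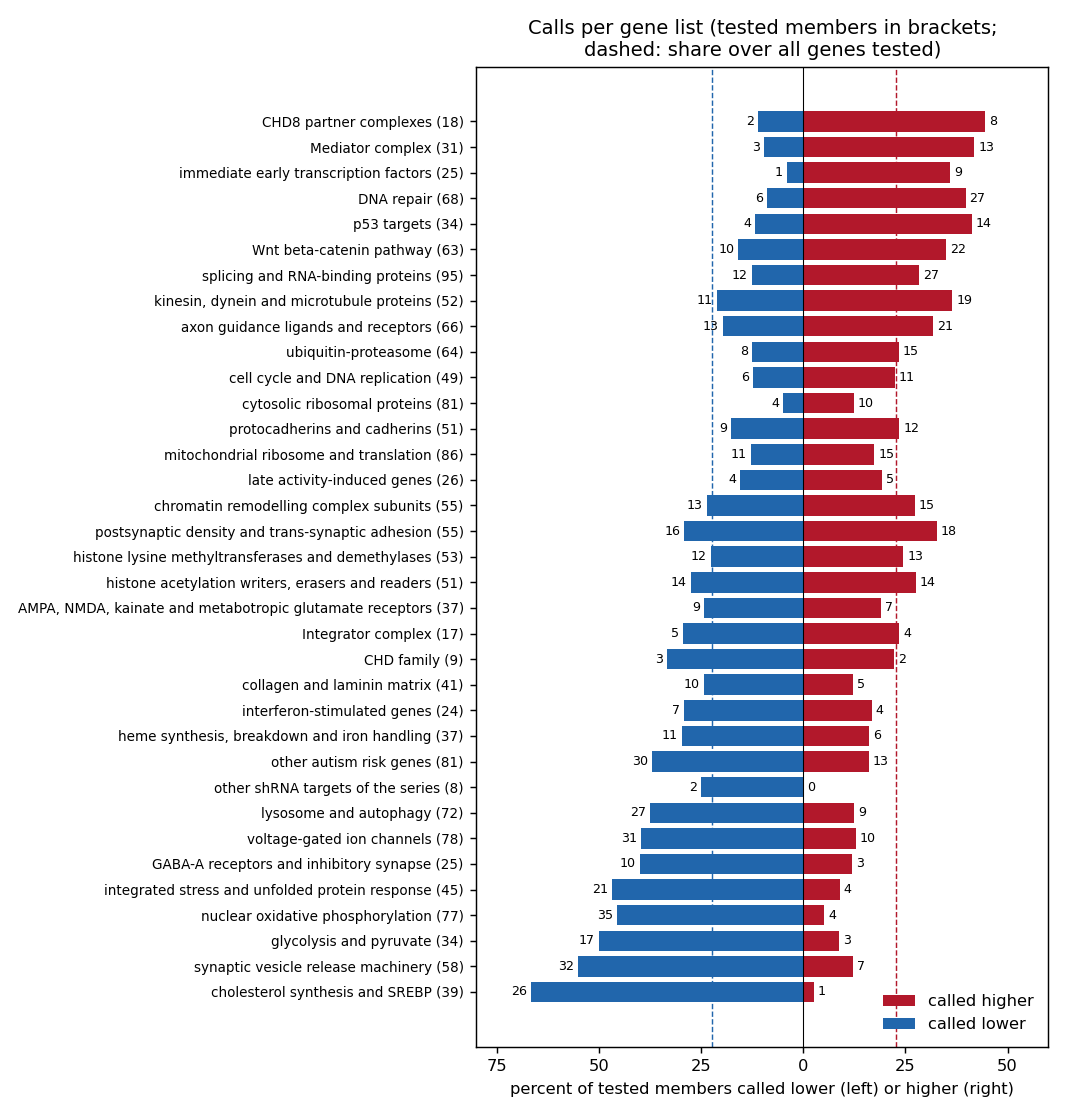
Share of the tested members of each gene list called lower (blue, to the left) or higher (red, to the right) after Chd8 shRNA, with the number of genes at the bar end, the number tested in brackets and dashed lines at the shares over all genes (22.3% lower and 22.6% higher). The lists of cholesterol synthesis (26 of 39 lower) and vesicle release (32 of 58 lower) extend farthest to the left. Those of genes listed as CHD8 partners (8 of 18 higher) and of Mediator (13 of 31 higher) extend farthest to the right.

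Changes in Chd8's own family and in genes listed as its partners were under 1 on the log2 scale. Among the other 9 CHD family members, Chd1l rose by 0.96 (SE 0.143) from 3.96 to 7.85 CPM and Chd1 by 0.18, while Chd3, Chd4 and Chd9 fell by 0.26, 0.39 and 0.17. The calls of Chd1, Chd4 and Chd9 were lost without the replicate block (adjusted p = 0.0522, 0.0543 and 0.219), and those of Chd1 and Chd9 also without 1 library. Of 18 genes listed as partners 8 rose and 2 fell (median 0.17, and 6 and 1 without the block). The list also holds DNA-binding factors such as Gabpa, Elk1 and Yy1. Gabpa and Elk1, the ETS factors, rose by 0.73 (SE 0.0792) and 0.62 (SE 0.0774), Rbbp5, of the COMPASS methyltransferase core, by 0.49, and Ctnnb1, beta-catenin itself, by 0.31 (SE 0.0567, from 597 to 745 CPM). Yy1 fell by 0.43.

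In the Wnt pathway, 22 of 63 tested genes rose and 10 fell, with a median of 0.08 (10 and 8 without the replicate block). The 3 largest changes were decreases, in the target Ccnd1, given above, and in 2 members of the receptor branch. Fzd3, a Frizzled receptor of axon tracts, measured 61.4 ± 18.1 CPM in the controls and 18.2 ± 4.79 CPM after Chd8 shRNA (SD, n = 6 each), a log2 fold change of -1.74 (SE 0.0829). Dvl3, a Dishevelled adaptor that relays Frizzled signals, fell by 1.43 (SE 0.0647), from 33.5 to 78.2 CPM (median 66.5) to 14.1 to 29.5 CPM (median 23.5), without overlap. The corepressor Tle2 fell by 0.93 (SE 0.127). Among secreted members Sfrp2 and Rspo2, a Wnt antagonist and an agonist, rose by 1.12 (SE 0.100) and 0.80 (SE 0.0824). The destruction complex member Apc2 rose by 0.54 and the target Myc by 0.58, while Bcl9l and Pygo1 were not called.

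Chromatin and transcription lists moved in both directions. Of 53 histone lysine methyltransferases and demethylases 13 rose and 12 fell (6 and 6 without the block), of 51 acetylation genes 14 rose and 14 fell (5 and 8), and of 55 remodelling subunits 15 rose and 13 fell (9 and 4), close to the shares over all genes. Some paralogous subunits went opposite ways. Smarcc1 of the BAF remodeller rose by 0.63 (SE 0.0712), from 107 to 141 CPM in the controls (median 125) to 177 to 205 CPM (median 190). Its paralogue Smarcc2 fell by 0.64 (SE 0.0474), from 261 to 317 CPM (median 283) to 161 to 209 CPM (median 179). Neither gene's groups overlapped. Likewise Ehmt1 rose by 0.60 and Ehmt2 fell by 0.45, and in Polycomb complex 2 Ezh2 rose by 1.04 (SE 0.180, from 5.38 to 11.6 CPM) while Ezh1 and Suz12 fell by 0.36 and 0.41. Ss18, another BAF subunit, rose by 1.08 (SE 0.0880), and the corepressors Rcor1 and Rcor3 fell by 0.81 and 0.85.

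Mediator, which links enhancer-bound factors to RNA polymerase II, had 13 of 31 subunits higher and 3 lower (median 0.10; 5 and 3 without the block). The largest change was a decrease: Med9 went from 32.0 to 37.5 CPM in the controls (median 34.1) to 7.91 to 15.6 CPM after Chd8 shRNA (median 12.9), a log2 fold change of -1.47 (SE 0.110). Med16 rose by 0.69 and Med29 by 0.58. In the Integrator complex 4 of 17 rose and 5 fell (3 and 2 without the block). Of 95 splicing and RNA-binding genes 27 rose and 12 fell (12 and 2 without the block). The neuronal regulators Rbfox1 and Elavl3 fell by 1.13 (SE 0.0712) and 1.35, against increases of Rbfox2 by 0.39, Ptbp3 by 0.72 and Hnrnpab by 0.43.

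DNA repair genes were called higher more often than lower, 27 against 6 of 68, with a median of 0.17. Fancc, of the Fanconi anaemia core complex, measured 5.64 to 8.55 CPM in the controls (median 6.96) and 12.8 to 17.7 CPM after Chd8 shRNA (median 16.6), a log2 fold change of 1.20 (SE 0.0869). Xrcc4, of end joining, rose by 1.05 (SE 0.101), Xpc, the damage sensor of nucleotide excision repair, by 0.88 (SE 0.0762) and Ddb2 by 0.81 (SE 0.0996). Rev3l, the catalytic subunit of translesion polymerase zeta, fell by 0.85. Of 34 p53 targets 14 rose and 4 fell (median 0.18; 9 and 3 without the block). Xpc and Ddb2 belong to this list too, with Btg2 and Rrm2b higher by 0.79 and 0.69. The cyclin-dependent kinase inhibitor Cdkn1a fell by 0.52 (SE 0.0849), from 131 ± 17.5 to 93.3 ± 23.3 CPM, and Trp53 itself fell by 0.25 (adjusted p = 0.191 without the block, and 0.222 with the cells without virus as control). Of 49 cell cycle genes 11 rose and 6 fell (8 and 4 without the block), with Cdk4 and Mcm7 higher by 0.48 and 0.58 and Cdc45 higher by 1.34 from 1.01 CPM.

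Synaptic vesicle genes were mostly called lower. Of 58 genes of the release machinery 32 fell and 7 rose (55.2% and 12.1%), with a median of -0.27. Syt1, the calcium sensor of fast release, lay between 941 and 1382 CPM in the controls (median 1252) and between 500 and 784 CPM after Chd8 shRNA (median 653), without overlap. Its log2 fold change was -0.92 (SE 0.0708, adjusted p = 2.4e-06). Syn2 and Syn3, synapsins that hold vesicles in reserve, fell by 1.14 (SE 0.0686) and 1.13 (SE 0.0947), and Synj1, which uncoats endocytosed vesicles, by 0.88 (SE 0.0518). Cplx2, complexin 2, rose by 0.55 (SE 0.0911), from 417 to 612 CPM (median 460) to 465 to 1102 CPM (median 657), with overlapping groups. Stx1a, Syt4 and Syt11 rose by 0.24, 0.34 and 0.23 (Syt4 at an adjusted p of 0.0788 without the block), and Napb was not called. The genes of this list are abundant, and the share called lower over all genes was 32.2% in the highest of the 10 groups by level. The part of level in the count was not tested.

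Receptors and channels showed a similar lean in part. Of 78 voltage-gated channel genes 31 fell and 10 rose (median -0.17; 17 and 7 without the block). Cacnb1, an auxiliary calcium channel subunit, fell by 1.18 (SE 0.0749), and Cacna1b, the N-type calcium channel, and Kcnd3, a transient potassium channel, each by 0.73, while Kcnk2 rose by 0.69 (SE 0.0548). Of 25 genes of the GABA synapse 10 fell and 3 rose (6 and 2 without the block), led by Gabrg3 at -1.01 (SE 0.0741). Of 37 glutamate receptor genes 9 fell and 7 rose (6 and 3 without the block). The AMPA receptor auxiliary proteins Shisa6, Shisa7 and Shisa9 fell by 1.20, 0.85 and 0.69 and the NMDA subunit Grin2d by 1.05, while Grm5 rose by 0.35. The postsynaptic and adhesion genes were balanced, with 18 higher and 16 lower of 55 (9 and 10 without the block). The latrophilin Adgrl1 fell by 0.78 (SE 0.0563, from 478 to 280 CPM), while the synaptic organisers Cbln1 and Cbln2 rose by 0.74 and 1.08 (SE 0.115 and 0.0857).

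Genes of axon growth changed in both directions. Of 66 guidance genes 21 rose and 13 fell (13 and 7 without the block). Draxin and Ntn4, 2 secreted guidance proteins, rose by 1.84 and 1.40 (SE 0.149 and 0.100), and their receptor relatives Neo1 and Unc5d fell by 1.14 (SE 0.0569) and 1.11 (SE 0.0580). Of 52 kinesin, dynein and microtubule genes 19 rose and 11 fell (12 and 8 without the block). Against the falls of Kif1b, Map1b and Tubb4a, Stmn1, a tubulin-binding protein of growing axons, rose from 680 to 957 CPM (median 738) to 1064 to 1605 CPM (median 1235), a log2 fold change of 0.70 (SE 0.0565) without overlap. Stmn4 rose by 0.65 and Tubb3 by 0.33, and the abundant tubulins Tuba1a (6239 and 6530 CPM) and Tubb2b (2606 and 2784 CPM) were not called. Of 51 cadherins and protocadherins 12 rose and 9 fell (7 and 5 without the block). Pcdh10 fell by 1.07 (SE 0.0454, from 231 to 110 CPM), and Cdh20 and Cdh2 rose by 0.93 and 0.50.

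Sterol synthesis had the highest share of decreases among the lists. Of 39 genes of cholesterol synthesis and its SREBP regulators 26 fell (66.7%) and 1 rose (2.56%), with a median of -0.37. Their summed level was 6894 to 8307 CPM in the controls and 6310 to 6859 CPM after Chd8 shRNA, without overlap. Enzymes at several steps of the pathway were among the decreases. Lss, lanosterol synthase, measured 105 to 134 CPM in the controls (mean 120) and 55.4 to 80.2 CPM after Chd8 shRNA (mean 66.8), a log2 fold change of -0.86 (SE 0.0604, adjusted p = 1.3e-06). Mvk, Mvd and Fdps, other enzymes of the pathway named after their values were seen, stood at -0.67, -0.64 and -0.53. Tm7sf2, a sterol reductase, fell by 1.29 (SE 0.0910), from 39.7 ± 6.62 to 16.1 ± 1.68 CPM, and Elovl6, a fatty acid elongase, by 0.80. The abundant entry enzyme Hmgcs1 (1277 and 1253 CPM) was not called, and Fasn, fatty acid synthase, was the gene that rose, by 0.28 (adjusted p = 0.106 without the block).

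Many genes of energy metabolism were lower. Of 34 glycolysis and pyruvate genes 17 fell and 3 rose (median -0.31), and their summed level was 10384 to 12918 CPM in the controls and 5593 to 9911 CPM after Chd8 shRNA, without overlap. Hk1, the main neuronal hexokinase, went from 325 to 491 CPM in the controls (median 413) to 84.6 to 213 CPM (median 155), a log2 fold change of -1.48 (SE 0.111) without overlap. The enolase Eno2 fell by 0.66 and the phosphofructokinases Pfkm and Pfkp by 0.43 and 0.35. Outside the rule, and chosen after their values were seen, members at other steps of the pathway were among the decreases, with Gpi1 at -0.79, Aldoa at -0.71, Tpi1 at -0.68, Gapdh at -0.55, Pgk1 at -1.29 and Pkm at -0.67. Several of these genes have processed pseudogenes that can share reads. Pdk2, which inhibits pyruvate dehydrogenase, rose by 0.84 (SE 0.0732). The other members that rose were Pfkfb3 and Pfkfb2, at 0.50 and 0.28 in the fit of all libraries. Slc2a3 and Ldhb, abundant members of the list, were not called. Of 77 nuclear genes of oxidative phosphorylation 35 fell and 4 rose (median -0.16; 17 and 0 without the block). The ATP synthase subunit Atp5a1 fell by 0.57 (SE 0.0872, from 1044 ± 44.1 to 713 ± 137 CPM), Ndufb3 by 0.75 and Sdha by 0.46, while Atp5b, at 1605 and 1567 CPM, was not called. Of 86 genes of mitochondrial translation 15 rose and 11 fell (3 and 7 without the block), and of 81 cytosolic ribosomal protein genes 10 rose and 4 fell (2 and 2 without the block), the lowest share called among the 35 lists. Rpl10, on the X chromosome, was the exception in size, at -0.89 (SE 0.131, from 250 to 135 CPM), though ribosomal protein genes have many processed pseudogenes and reads may be split between copies.

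Among stress and degradation genes, 21 of 45 genes of the integrated stress and unfolded protein responses fell and 4 rose (median -0.23; 8 and 1 without the block). Aldh18a1, of proline synthesis, fell from 92.6 to 33.3 CPM. Edem1, of endoplasmic reticulum degradation, had a log2 fold change of -1.26 (SE 0.0802) and the chaperone Canx one of -0.61, while the chaperones Hspa5 and Calr were not called. Of 72 lysosome and autophagy genes 27 fell and 9 rose (17 and 5 without the block). The autophagy kinases moved apart, with Ulk2 at -0.93 (SE 0.0486) and Ulk1 at 0.61 (SE 0.0620). Npc2, a lysosomal cholesterol carrier, rose by 0.82 (SE 0.0646). Of 64 ubiquitin and proteasome genes 15 rose and 8 fell (7 and 7 without the block), with Ube2n at -0.94. In heme and iron handling 11 of 37 fell and 6 rose (8 and 4 without the block). Abcb10, a mitochondrial transporter that associates with Fech, fell by 1.39 (SE 0.110), and the heme exporter Flvcr1 by 0.62. Ferritin Fth1 was not called.

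Of 81 other autism risk genes 30 fell and 13 rose (17 and 6 without the block), with a median of -0.06. Ank2, the ankyrin of axons, measured 594 to 1199 CPM in the controls (median 866) and 281 to 592 CPM after Chd8 shRNA (median 441). The ranges nearly met but did not overlap, and the log2 fold change was -0.99 (SE 0.0461, adjusted p = 8.0e-08). Taok1 fell by 0.78, Ube3a by 0.47, and Shank2 and Trio rose by 0.54 and 0.42. Grin2b, Scn2a and Tcf4 were not called. Of the other 8 targets of the series, Setd5 fell by 0.33 and Ash1l by 0.30 (adjusted p = 0.0761 without the block, and up to 0.0686 without 1 library), and the 6 others were not called.

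Of 25 immediate early factors 9 rose and 1 fell (6 and 0 without the block), among them Btg2 and Jun, which rose by 0.67 (SE 0.0743). Of 26 late activity-induced genes 5 rose and 4 fell. Tac1 rose by 0.67 (SE 0.0851), and the 4 decreases, Spry4, Cort, Crh and the peptide gene Sst, had adjusted p values from 0.109 to 0.212 without the block. Cort and Sst also lost the call without 1 library. Of 41 collagen, laminin and matrix genes 10 fell and 5 rose (6 and 4 without the block), with Hapln1 at -0.89 and Col5a2 at 1.43. Of 24 tested interferon-stimulated genes 7 fell and 4 rose. Oasl2 had the largest change, 3.10 (SE 0.373), at levels of 0.0678 to 0.487 CPM in the controls (median 0.156) and 0.846 to 3.78 CPM after Chd8 shRNA (median 1.56). Ifit2 rose by 1.20, while Tap1 and Ifi27 fell by 1.03 and 1.09.

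Male and female cultures moved alike. In males 3635 genes (24.7% of those tested) were called, 1697 higher and 1938 lower, and in females 3448 (23.5%), 1583 higher and 1865 lower. Without the replicate block these counts were 1206 and 1171. Of the genes called in males 99.6% had the same direction in females and 73.0% were also called there in that direction. Of the genes called in females 99.5% had the same direction in males and 76.9% were called. The male and the female comparison have no library in common. Both came from a joint fit of the 12 libraries with the spread estimated over both sexes, so their calls are not independent. With each sex fitted alone, 4315 genes were called in males and 2240 in females. Across the 9894 genes of at least 10 CPM in either group the log2 fold changes of the sexes had a Pearson r of 0.94, and across all tested genes one of 0.80, descriptions over genes, which are not independent replicates. A sex difference in the response, tested as an interaction with edgeR's quasi-likelihood test, was called for 0 of 14700 genes (0%). In the same test 190 genes had an unadjusted p under 0.05. That share is below 0.05, the share that an unbiased test gives when no gene differs, so the test may be conservative. The 2 genes with the smallest p were Xist, with log2 fold changes of 1.39 in males and -0.98 in females, and H2-T23, with -1.77 and 0.11, and neither passed after adjustment. Xist, the noncoding RNA of the inactive X chromosome, lay between 0.0623 and 0.796 CPM in the male libraries, where a fold change rests on few counts. With 3 libraries per group a small sex difference may not be detectable.

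**Figure D4:**
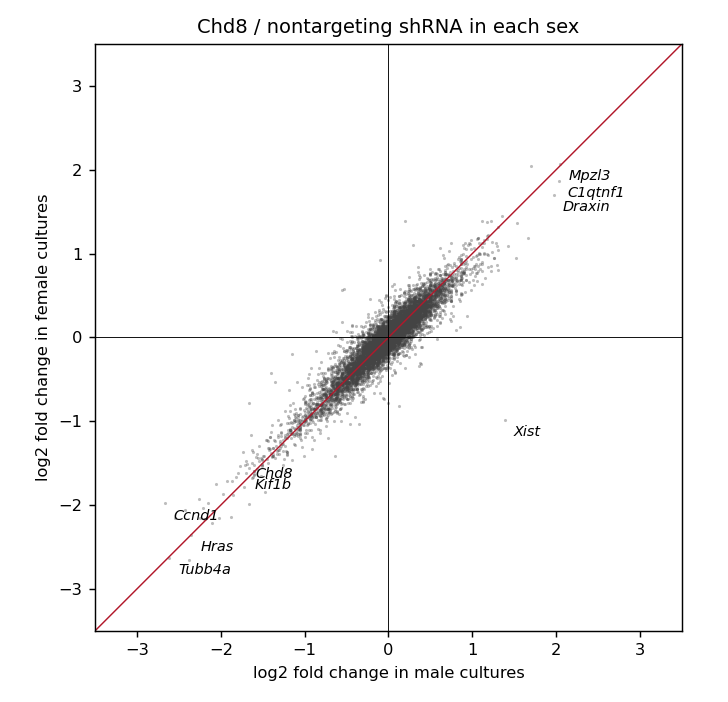
Log2 fold change of Chd8 over nontargeting shRNA in male (x axis) and female cultures (y axis) for the 9894 genes of at least 10 CPM in either group; each point is a gene and the red line marks equal change. Points lie along the line (Pearson r of 0.94 here and 0.80 over all tested genes), and the labelled Xist, at 1.39 and -0.98, lies off it.

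The cells without virus and the 8 other shRNAs give further references. Virus with the nontargeting shRNA differed little from no virus: 3 of 14669 genes (0.0205%) were called, Col3a1, Igf2 and Fam214b, all lower with virus, and 585 had an unadjusted p under 0.05. None was called without the replicate block. Against the mean of the 8 other targets, Chd8 shRNA changed 7914 of 15645 genes (50.6%). In the library labelled Kdm6b male 1, Kdm6b was at 39.6 CPM, against 17.2 and 17.3 CPM in replicates 2 and 3, and Setd5 at 44.6 CPM. In the library labelled Setd5 male 1, Setd5 was at 143 CPM, against 42.7 and 43.3 CPM in replicates 2 and 3, and Kdm6b at 23.4 CPM. Both libraries go against their labels. Without the male Kdm6b and Setd5 libraries 8181 genes were called. By the test of each difference at an adjusted p under 0.05, 1038 of 14699 genes (7.06%) were called lower than under the nontargeting shRNA and lower than under each of the 8 other shRNAs, and 789 (5.37%) were called higher than all of them. Without the male Kdm6b and Setd5 libraries these counts were 951 and 665.

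Most lead genes were among these. Chd8, Lpgat1, Kif1b, Map1b, Azin1, Fech, Tubb4a, Hras, Cygb and Ccnd1 were lower, and Mpzl3, Draxin, Fubp1 and Vrk3 higher, than under each of the 8 others. Against the nontargeting libraries, which all targets share, Tubb4a was at -2.60 under Chd8 shRNA in the fit of all libraries and between -0.13 and 0.13 under the others. Hras was at -2.35 and between -0.22 and 0.13, and Draxin at 1.82 and between -0.43 and 0.32. Kif1b was at -1.67 and between -0.66 (Ash1l) and 0.32 (Setd5). Lpgat1 was at -1.93 and between -1.05 (Tbr1) and 0.29 (Med13l), and Ccnd1 at -2.28 and between -0.91 (Med13l) and 0.44 (Kmt2c). Ppp1r1c was at -2.66, and at -1.71 under Ash1l shRNA. Scrt1 was at -2.16, and at -1.57 under Dnmt3a shRNA. The fit of all libraries includes the male Kdm6b and Setd5 libraries, so values under these targets may mix both. Other named genes had a change of similar or larger size under another target. Myh8 was at -2.20 under Chd8 shRNA and at -2.42 under Med13l shRNA, and Syt1 at -0.92 and -2.41. Chaf1b rose under Med13l shRNA as well. The DNA repair genes Fancc, Xrcc4, Xpc and Ddb2 also rose there, by 0.50, 0.55, 0.72 and 0.34. Under Chd8 shRNA they stood at 1.19, 1.04, 0.87 and 0.80 in the same fit. Xpc and Ddb2 were also higher under Setd5 shRNA, by 0.28 and 0.54, and Xpc under Ash1l and Dnmt3a shRNA, by 0.36 and 0.40. Among the genes with the smallest adjusted p against the mean of the 8 others were also Tarsl2, a tRNA synthetase, Slc39a6, a zinc transporter, and Pgap2, of GPI anchor remodelling, at -1.74, -2.07 and -1.74 against that mean.

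**Figure D5:**
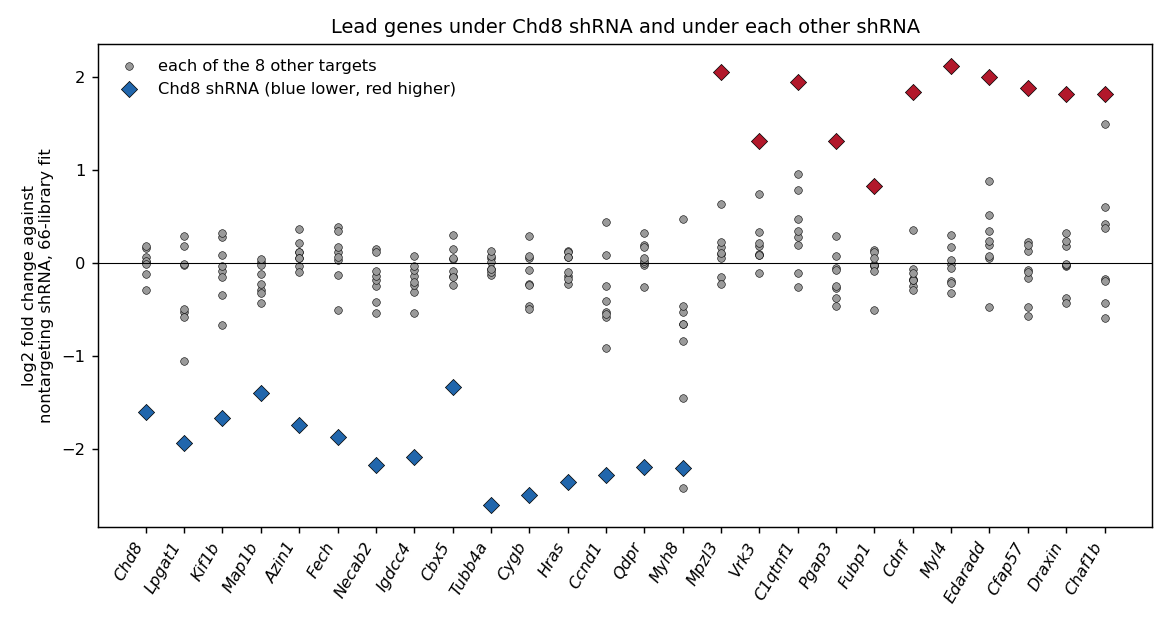
Log2 fold change against the nontargeting shRNA (y axis, fit of all 66 libraries) for 26 lead genes under Chd8 shRNA (diamonds, blue lower and red higher) and under each of the 8 other shRNAs (grey circles). All 9 targets share the same nontargeting libraries; Tubb4a stands at -2.60 for Chd8 with the others between -0.13 and 0.13, while Myh8 and Chaf1b have another target close to or beyond Chd8.

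Read against the 8 other targets, decreases also outnumbered increases in these lists: 28 of 58 vesicle genes were lower and 10 higher than the mean of the others, 29 of 39 sterol genes lower and 4 higher, 24 of 34 glycolysis genes lower and 3 higher, and 52 of 77 oxidative phosphorylation genes lower and 1 higher. For the 81 cytosolic ribosomal protein genes, of which 4 were lower than with the nontargeting shRNA, 28 were lower and 1 higher than the mean of the other targets. DNA repair had 30 genes higher and 8 lower of 68, and the axon guidance genes 33 higher and 15 lower of 66. The comparison over all genes tested in both fits gave 4089 higher and 3716 lower. The mean of the others also holds increases against the nontargeting shRNA. Under Med13l shRNA, all oxidative phosphorylation genes named by rule were higher, by 0.13 (Sdha) to 0.65 (Ndufa6). The ribosomal protein genes named by rule were higher there by 0.27 (Rpl10) to 1.01 (Rps27l). The part of such increases in the counts against the mean was not tested.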

How the data were processed

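PolyA RNA was sequenced from 66 libraries (TruSeq Stranded mRNA, per the labels' protocols). The deposited values are read counts per gene, made by the authors with STAR and featureCounts on mm10, per the submitters' processing notes; versions and the strand setting are not given in the sources used here. The table has 48716 rows, of which 18483 carry no symbol and were left out (0.72% to 1.14% of the counts of each of the 12 libraries). Rows that repeat a symbol (149) were summed, and 6 columns that match no sample were not used. Of counts from 1 to 20, 27.7% were odd, against 49.5% of counts of at least 1000, so low counts may not be single fragments, and a fit with counts halved was run as an alternative. No 2 libraries of a group agreed within sampling noise.

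The main test was edgeR's quasi-likelihood test (edgeR 4.0.16, R 4.3.3; filterByExpr, TMM factors from 0.951 to 1.04, robust dispersion) on the 12 libraries, with sex and replicate number as a block and 5 residual degrees of freedom. All adjusted p-values are Benjamini-Hochberg values over all genes tested, with a threshold of 0.05, and SE is the log2 fold change divided by the root of F. The numbers were taken to pair the libraries. Across genes, deviations of same-numbered libraries from their group means correlated at 0.127 to 0.204 in males and 0.411 to 0.635 in females. For libraries of different number the values were -0.183 to 0.036 in males and -0.541 to -0.063 in females. Because deviations are taken from the group means, these values are not independent of the former. Each sex and the interaction were fitted on the same libraries, and the other targets on all 66. CPM values use TMM-scaled library sizes. Fits were tested on simulated data, and DESeq2 1.42.0 was an alternative.

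Genes are named by this rule: Chd8, the 12 genes in each direction with the smallest adjusted p and the 8 in each direction with the largest change at a mean of at least 5 CPM in either group, with the same direction in all 6 pairs, up to 4 called members in each direction and 2 abundant uncalled members of each list, the 2 genes with the smallest p for a sex difference, and 10 genes against the other targets. Some genes that the rule names are not reported here. The members and lists were chosen with earlier results of these data known. Promoter windows came from RefSeq (GRCm38.p6).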

Additional observations from a re-analysis of the deposited data

How the results depend on the processing

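Without the replicate block, 3957 genes were called over both sexes (1919 higher, 2038 lower), 1206 in males, 1171 in females, and 0 between nontargeting shRNA and no virus (103 at an unadjusted p under 0.05). Of the 401 named genes, 54 lost the call without the block and 26 without at least 1 library; no lead gene lost it either way. With the libraries of one sex alone and the block, 4315 genes were called in males and 2240 in females. DESeq2 called 6647, RLE size factors 6603, halved counts 6547, no filter on low counts 6220, all 66 libraries 6156 and no virus as control 6044. Leaving out 1 library at a time gave 5499 to 6452 genes over both sexes, 1451 to 4804 in males and 1310 to 3583 in females. The male count moved by more than 1.5 times without any 1 of the 6 male libraries (1451 to 2036), and the female count without number 1 or 3 of either female group (1310 to 2149). With the block, the partner of a library left out no longer bears on the comparison. The sex difference was called for 0 genes under every alternative run. Ndufa6 went from 0.17 to -0.00 with no virus as control (adjusted p = 0.999); the cause was not tested. Depth limits the low genes most: in the lowest of the 10 groups by level (median 0.557 CPM), 8.30% of genes were called higher and 5.85% lower.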
